A study of Mus musculus with 6 samples.

Results

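The nuclear genes of mitochondrial ribosomal proteins were examined in ear skin of mice treated with imiquimod. The members are all rows of the deposited table whose symbol begins with Mrpl or Mrps followed by a digit, without symbols containing -ps. This gave 78 of 23518 genes, 49 named for the large subunit (Mrpl) and 29 named for the small subunit (Mrps). All 78 passed the filter on low values, so none is missing from the counts below. The study compared 3 wild-type samples (WT) with 3 samples labelled HdR, stood at from the series' design as mice whose HOIL1 lacks its RING1 domain. HOIL1, the product of Rbck1, is a subunit of the ligase complex that builds linear ubiquitin chains. Ears of both genotypes had received 10 mg of a cream with 5% imiquimod and were sampled on day 1, so nothing here describes skin without imiquimod. The sources used here do not give strain, age or sex.

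Mitochondria carry their own ribosome, which translates the few proteins encoded by mitochondrial DNA, all of them subunits of the respiratory chain and of ATP synthase. Its RNA comes from mitochondrial DNA, whereas its proteins are encoded in the nucleus, made in the cytosol and imported. The small subunit binds and decodes the messenger RNA, and the large subunit forms the peptide bond. Many of the proteins have bacterial relatives and others exist only in mitochondria.

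The table holds aligned bases summed per gene, 4433 to 5966 Mb per library, which corresponds to 14.8 to 19.9 M pairs of reads at 300 bases a pair. Levels are normalised coverage in bases per Mb, and a change is the HdR mean less the WT mean of log2(value + 1), with adjusted p from limma after Benjamini-Hochberg adjustment over all 15049 genes tested. Rbck1 stood at 66.6, 55.1 and 64.1 in WT and 23.9, 13 and 19.7 in HdR, and a sum over the gene does not show the deletion itself. Short transcripts as a whole had higher coverage in HdR and long ones lower, so each result is also given with a trend on annotated transcript length removed from each library. In whole skin a larger share of some cell type and more RNA per cell cannot be told apart. Epidermal keratinocyte markers were abundant in all samples, with sums of 11362 to 13043 over 9 genes in WT and 8532 to 10073 in HdR (2 fell). Marker sums of skeletal muscle were higher in HdR, at 6638 to 7829 against 3453 to 4825 for 14 genes (7 rose). Those of adipocytes were 2596 to 3614 against 847 to 901 for 10 genes (7 rose). Macrophage marker sums were 3020 to 3342 against 1004 to 1834 (7 of 10 genes rose) and those of neutrophils 699 to 3188 against 142 to 198 (5 of 6 tested rose). Hair follicle marker sums were 28.8 to 80.4 against 419 to 631 (11 of 12 fell) and those of cycling cells 295 to 447 against 462 to 496 (5 of 8 fell). Fibroblast marker sums overlapped, at 5540 to 6979 in HdR and 5241 to 7446 in WT (2 of 7 genes fell). So did those of T and NK cells, at 37 to 69 and 29.7 to 66 (0 of 6 tested were called). Of all genes tested 12.7% were called higher and 17.9% lower. No marker list had a gene at 0 in all samples. The part of these cells in the results below was not tested.

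Mitochondrial ribosomal protein genes had higher coverage in the HdR samples, and none was called lower. Of the 78 members 45 rose (57.7%), whereas 12.7% of all genes tested were called higher. No member fell in the limma test, and none was lower at an unadjusted p under 0.05 (1 with voom and 2 with scaling to total bases, which gave 16 members a negative change). The median change of the members was 0.76, with the middle 50% of genes between 0.42 and 0.96, and the median of all genes tested was -0.13. The change was positive in 73 members and negative in 5, while 42% of all genes had a positive change. In 66 members all HdR samples lay above all WT samples, against 20.9% of all genes. In 1 they all lay below, against 30.7% of all genes. The largest change was 1.34, and 18 of the risen members changed by more than 1 on the log2 scale, as did 4.66% of all genes.

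The number of calls changed with single libraries while the median stayed between 0.58 and 0.89. Without WT replicate 1 limma called 0 members (45 higher at an unadjusted p under 0.05, smallest adjusted p = 0.0504), and 1.33% of all genes were called higher. The median was then 0.73, and 73 members still had a positive change. Leaving out WT replicate 2 gave 57 members (all genes 17.9%), and leaving out WT replicate 3 gave 15 (4.1%). Leaving out HdR replicates 1, 2 and 3 in turn gave 26 (6.96%), 22 (5.18%) and 46 (10.3%). Of the 22 risen genes among those named by rule, 22, 11, 7, 11 and 1 lost their call without WT replicates 1 and 3 and HdR replicates 1, 2 and 3. Scaling to total bases gave 26 members, with a median of 0.44 beside -0.41 for all genes. In that fit 6.1% of all genes were called higher. The voom fit called 64 members higher, and 22.6% of all genes.

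**Figure D1:**
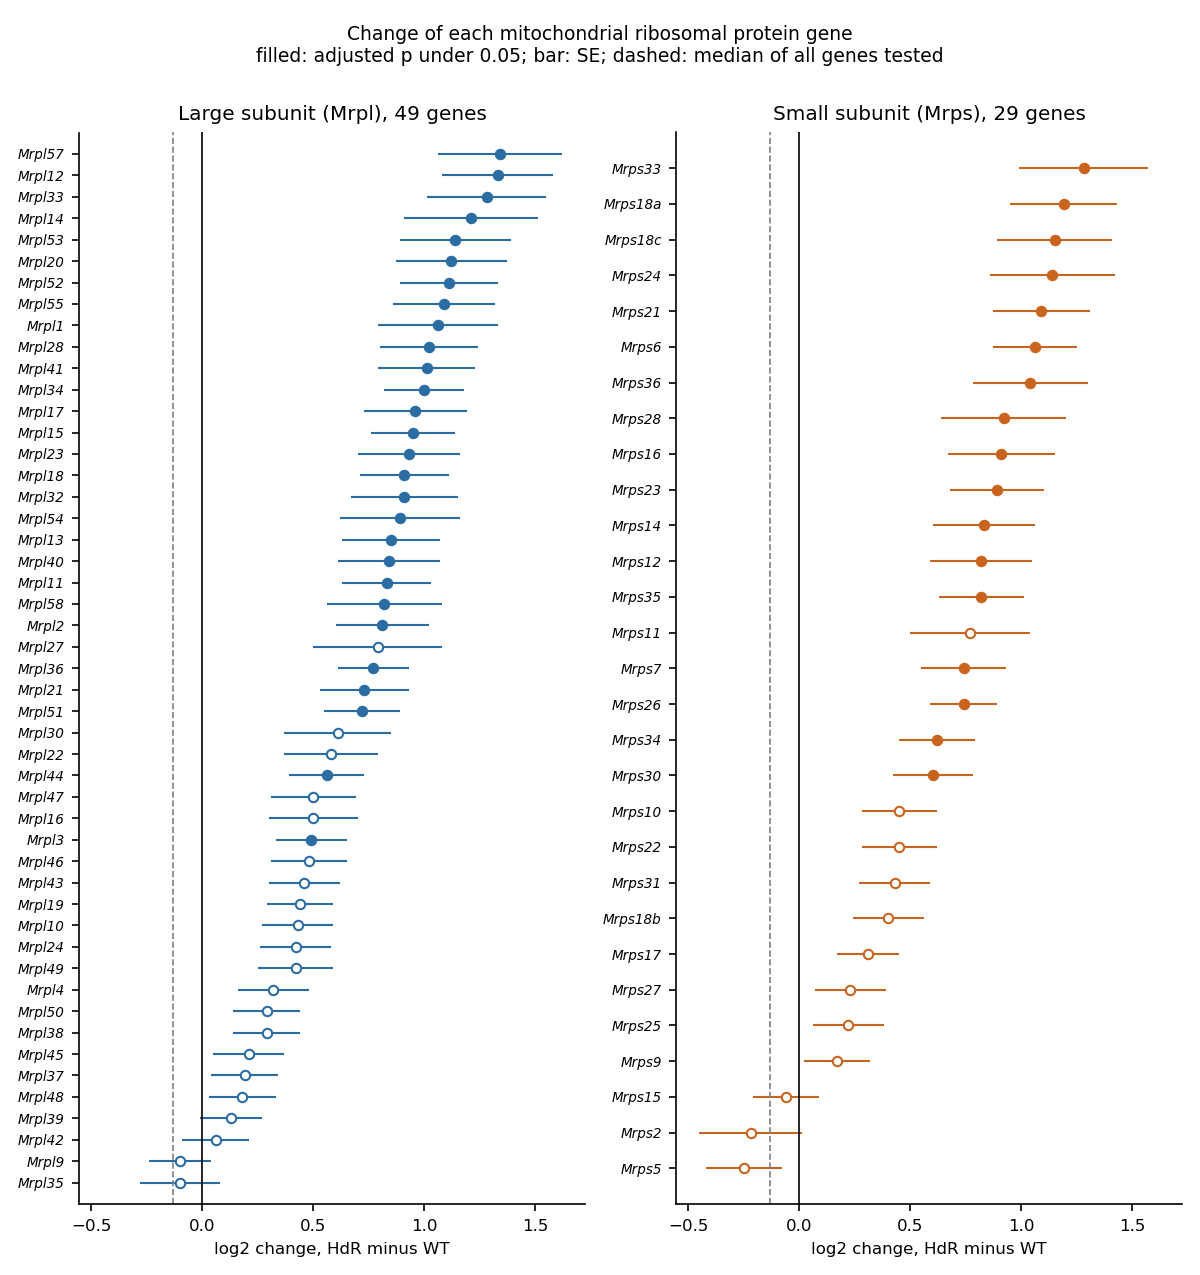
Log2 change (HdR minus WT, x axis) of each member, large subunit genes on the left and small subunit genes on the right. Bars are standard errors, filled points have a limma adjusted p under 0.05, and the dashed line is the median of all genes tested (-0.13); the 5 members left of 0 are Mrpl9, Mrpl35, Mrps2, Mrps5 and Mrps15.

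The large and the small subunit moved by nearly the same amount. Of 49 large subunit genes 28 rose (median change 0.77), and of 29 small subunit genes 17 rose (median 0.74). Coverage summed over the large subunit genes was 2168, 2700 and 1973 in WT replicates 1, 2 and 3 and 3610, 4902 and 3256 in the HdR replicates. The small subunit sums were 979, 1238 and 899 in WT and 1658, 2172 and 1480 in HdR. For each subunit the lowest HdR library stood above the highest WT library. The ratio of the small to the large sum was 0.452, 0.459 and 0.456 in WT and 0.459, 0.443 and 0.454 in HdR. The genotypes overlapped in this ratio, and the lowest ratio was that of HdR replicate 2, the library with the highest sums. Together the members took 0.368% ± 0.0304 (SD, n = 3) of all aligned bases in WT and 0.504% ± 0.0509 in HdR.

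Symbols do not name the subunit correctly in every case. The proteins of Mrps18a and Mrps30 sit in the large subunit of the mammalian mitochondrial ribosome, and the Mrps36 protein belongs to the 2-oxoglutarate dehydrogenase complex. Sorting these genes by structure gave 30 risen of 51 for the large subunit (median 0.77) and 14 risen of 26 for the small subunit (median 0.74). The ratio of the sums then ran from 0.41 to 0.416 in WT and from 0.394 to 0.412 in HdR, again lowest in HdR replicate 2. Mrps30 rose from 29 ± 4.74 to 44.6 ± 7.04 (change 0.60, limma adjusted p = 0.0385) and Mrps36 from 18.6 ± 3.57 to 40.8 ± 14.7 (1.04, limma adjusted p = 0.0221). Mrps36 did not pass with the length trend removed (0.42, limma adjusted p = 0.0982).

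**Figure D2:**
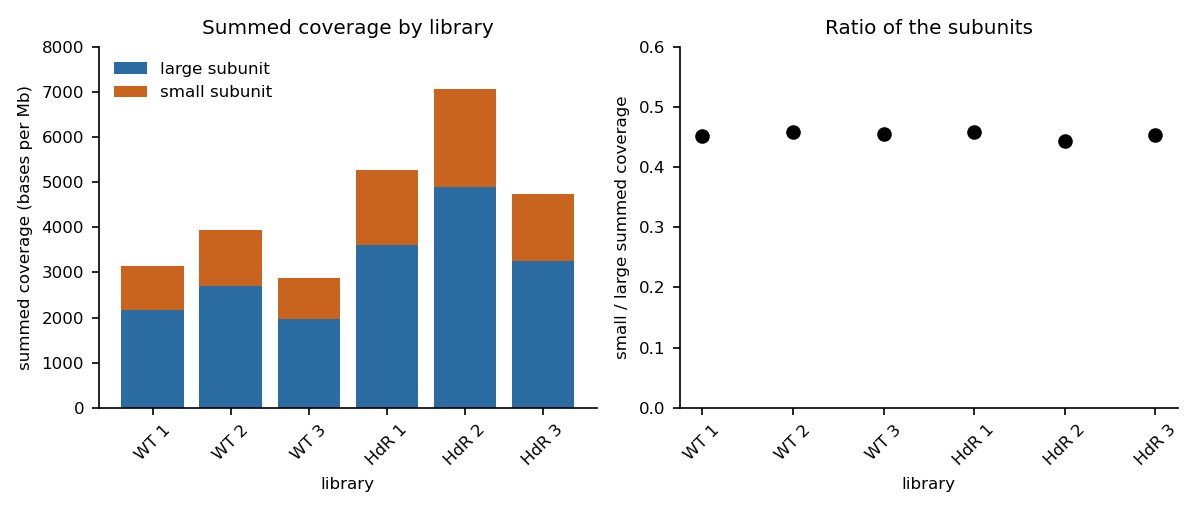
Left, normalised coverage summed over large (blue) and small (orange) subunit genes in each of the 6 libraries, in bases per Mb. Right, the ratio of the small to the large sum in the same libraries, which lies between 0.443 and 0.459, lowest in HdR replicate 2, where the sums are highest.

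The libraries ranked alike for most members. HdR replicate 2 was the highest library for 67 of 78 members and WT replicate 3 the lowest for 60, and 56 members had both. Within each genotype replicate 2 was high. Measured from the WT mean, the median member stood at -0.06, 0.21 and -0.16 in the WT replicates and at 0.70, 1.08 and 0.43 in the HdR replicates. The slope of coverage on transcript length over all genes gave the reverse order. It was 0.196, 0.041 and 0.254 log2 units per doubling of length in WT and -0.129, -0.277 and -0.083 in HdR. Genotype and this slope cannot be told apart between the groups. After removal of the length trend these medians were -0.04, 0.10 and -0.08 in WT and 0.35, 0.58 and 0.29 in HdR, so every HdR library still lay above every WT library.

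Among the large subunit genes the largest rises were those of Mrpl57 and Mrpl12. Mrpl57 (ENSMUSG00000021967.4; chromosome 14, 57826234 to 57829296 of GRCm38) encodes a protein found only in mitochondrial ribosomes. It stood at 42, 63.2 and 34 in WT and 104, 168 and 88.3 in HdR (change 1.34, SE 0.28, limma adjusted p = 0.0147). All its HdR values lay above its WT values, with HdR replicate 2 far above the other HdR samples. Mrpl12 (chromosome 11, 120484613 to 120489065) encodes a protein of the flexible stalk of the large subunit that also binds mitochondrial RNA polymerase. It stood at 81.4, 107 and 65.5 in WT and 191, 287 and 168 in HdR (change 1.33, SE 0.25, limma adjusted p = 0.0117). The groups did not overlap, and the change was 0.95 with the length trend removed (limma adjusted p = 0.0162).

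Mrpl33, the relative of a small bacterial ribosomal protein, stood at 74, 115 and 58.8 in WT and 169, 261 and 167 in HdR (1.28, limma adjusted p = 0.0147). Mrpl14, a conserved protein at the interface with the small subunit, stood at 42.3, 62.3 and 39.1 in WT and 99.1, 175 and 75.9 in HdR (1.21, limma adjusted p = 0.0223). Mrpl53 stood at 37.5, 51.1 and 37.4 in WT and 84.3, 136 and 69.8 in HdR (1.14, limma adjusted p = 0.0159). In each of these the lowest HdR sample exceeded the highest WT sample. Corrected for length, Mrpl33 changed by 0.58 (limma adjusted p = 0.0424) and Mrpl53 by 0.51 (limma adjusted p = 0.049), while Mrpl14 no longer passed (0.56, limma adjusted p = 0.0725). Of the exonic bases of Mrpl53, 88% are shared with other annotated genes, and the strandedness of the counting is not given, so its reads cannot be assigned with certainty.

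Other large subunit genes were named for their role. Mrpl28, the relative of a bacterial large subunit protein, rose from 25.6 ± 5.4 to 53.2 ± 13.1 (1.02, limma adjusted p = 0.0154). Mrpl3, whose loss in humans causes a cardiomyopathy with impaired mitochondrial translation, stood at 48.1, 49.1 and 43.8 in WT and 66.6, 75.8 and 57.5 in HdR (0.49, limma adjusted p = 0.0462). Mrpl44, linked to a similar disease, stood at 16.1, 19.8 and 15.3 in WT and 25.6, 28.2 and 23 in HdR (0.56, limma adjusted p = 0.0385). These rises were small but clear of overlap. Corrected for length, Mrpl3 changed by 0.82 (limma adjusted p = 0.0231), whereas Mrpl44 changed by 0.23 and did not pass (limma adjusted p = 0.202). The Mrpl44 log2 change also missed the threshold without WT replicate 1 or 3 or without any 1 HdR replicate (0.49 to 0.64, limma adjusted p = 0.0535 to 0.15). Mrpl58, a peptidyl-tRNA hydrolase built into the large subunit that frees stalled ribosomes, stood at 28.2, 42.9 and 27.2 in WT and 54.3, 80.9 and 42.5 in HdR (0.82, limma adjusted p = 0.0447), with 1 HdR sample just below the highest WT sample. Its length-corrected change was 0.90 (limma adjusted p = 0.0504).

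In the small subunit Mrps33, specific to mitochondria, had the largest change. Its values were 28.7, 49.3 and 23.2 in WT and 69.2, 110 and 65.5 in HdR (1.28, SE 0.29, limma adjusted p = 0.0175). Mrps12, whose bacterial relative shapes decoding accuracy, stood at 26.6, 29.9 and 21.6 in WT and 45.9, 61.6 and 35.2 in HdR (0.82, limma adjusted p = 0.0285). Mrps16 stood at 30.1, 39.5 and 26.9 in WT and 56.6, 84.9 and 46.3 in HdR (0.91, limma adjusted p = 0.0262). The genotypes did not overlap in any of these. Removing the length trend left Mrps33 at 0.82 (limma adjusted p = 0.0323) and Mrps16 at 0.99 (limma adjusted p = 0.0313), but Mrps12 at 0.27 (limma adjusted p = 0.198).

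Mrps34, Mrps22 and Mrps2 are linked to human disease. Mrps34 stood at 32.7, 41.8 and 31.4 in WT and 54.9, 59.7 and 48.7 in HdR (0.62, limma adjusted p = 0.029), but 0.08 with the length trend removed (limma adjusted p = 0.645), and 77.8% of its exonic bases are shared with other genes. Mrps22 stood at 37.4, 41.9 and 30.2 in WT and 49.2, 52.1 and 48 in HdR and did not pass (0.45, limma adjusted p = 0.0665). With the replicate number as a block Mrps22 passed (limma adjusted p = 0.0274). That pairing was taken from these same data, so calls with the block, here and below, are no separate support. Mrps22 did not pass with the length trend removed (0.03, limma adjusted p = 0.896, and 0.886 with the block). Mrps2, the relative of a bacterial small subunit protein, stood at 14.4, 17.8 and 14 in WT and 16.9, 9.21 and 14.1 in HdR (-0.22, limma adjusted p = 0.487), and its genotypes overlapped.

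The Mrps18 paralogs, all related to one bacterial small subunit protein, showed unequal values. Mrps18a stood at 25.1, 30.9 and 19.4 in WT and 50.1, 79.3 and 48 in HdR (1.19, SE 0.24, limma adjusted p = 0.0137). Mrps18c, the paralog at the ancestral position in the small subunit, stood at 62, 104 and 50.8 in WT and 140, 187 and 140 in HdR (1.15, SE 0.26, limma adjusted p = 0.0165). Mrps18b stood at 14.5, 14.4 and 15.1 in WT and 22, 18.3 and 18.7 in HdR, without overlap but short of the threshold (0.40, limma adjusted p = 0.0845). Corrected for length, the changes were 0.64 for Mrps18a (limma adjusted p = 0.0271), 0.57 for Mrps18c (limma adjusted p = 0.0496) and -0.07 for Mrps18b (limma adjusted p = 0.787). The difference between the paralogs was not tested. Of their exonic bases, 30.5% of Mrps18b and 23.2% of Mrps18c are shared with other annotated genes.

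The members with a negative change were few and small in effect. Mrpl9 stood at 74.2, 81.5 and 75.7 in WT and 68.8, 73.5 and 73 in HdR (-0.10, limma adjusted p = 0.584), and it was the only member with all HdR samples below all WT samples. Mrps5 stood at 24.9, 19.5 and 25.7 in WT and 18.7, 18.1 and 21.4 in HdR (-0.25, limma adjusted p = 0.283). Mrps15 stood at 29.2, 27.8 and 28.6 in WT and 29.2, 26.6 and 26 in HdR (-0.06, limma adjusted p = 0.757), and Mrpl35 changed by -0.10 (limma adjusted p = 0.706). Mrps5, Mrps15 and Mrpl35 overlapped between the genotypes. Corrected for length, Mrps15 passed as lower (-0.59, limma adjusted p = 0.043), the one member to do so, although its genotypes hardly differ in coverage.

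**Figure D3:**
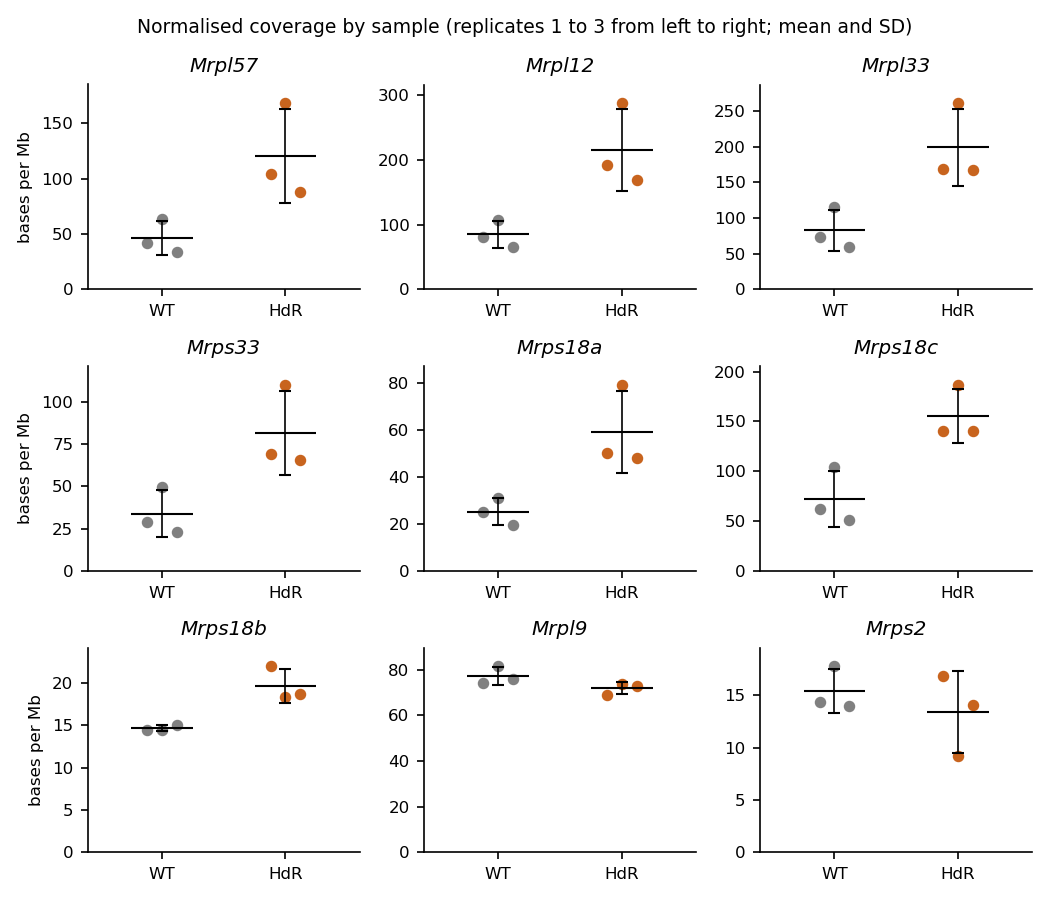
Normalised coverage (bases per Mb, y axis from 0) of 9 members in the 3 WT and 3 HdR samples, with mean and SD. The genotypes do not overlap in the upper 6 panels or in Mrps18b, they overlap in Mrps2, and in Mrpl9 the HdR samples lie slightly below WT.

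Levels of different genes can be compared only per length. Mean coverage per kb of annotated transcript over the 6 libraries ran from 4.77 bases per Mb per kb for Mrps5 to 295 for Mrpl33, with a median of 36.6 in the large and 29.8 in the small subunit. The large subunit genes with the highest level per kb were Mrpl33, Mrpl52 (237), Mrpl20 (175) and Mrpl54 (132), and those of the small subunit were Mrps21 (157), Mrps18c, Mrps24 (108) and Mrps28 (76.4). All of these have short transcripts and all rose. Mrpl20 rose from 84.1 ± 24.1 to 183 ± 50.9 (1.12, limma adjusted p = 0.0164) and Mrps24, whose protein lies where messenger RNA enters the small subunit, from 66.3 ± 21.1 to 148 ± 52.6 (1.14, limma adjusted p = 0.0218). Mrps28 rose from 40.2 ± 9.58 to 79.4 ± 31.1 (0.92, limma adjusted p = 0.0387) and Mrpl54 from 54.9 ± 13.8 to 105 ± 37.6 (0.89, limma adjusted p = 0.0374). Neither Mrps28 (0.33, limma adjusted p = 0.214) nor Mrpl54 (0.23, limma adjusted p = 0.315) passed with the length trend removed. Across the 78 members the change correlated with the log2 mean coverage (Pearson r = 0.47, across genes measured in the same libraries).

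Transcript length moved with the changes among the members too. Their annotated transcripts, each the longest protein-coding one, have a median of 1328 nt (463 to 7300), shorter than the 3024 nt of all genes tested. Across members the change fell with log2 transcript length (Pearson r = -0.37) and with log2 coding length (r = -0.58). Among the 24 members under 1000 nt 20 rose, with a median of 1.03, while 55.5% of all genes of that length were called higher, with a median of 0.74. From 1000 to under 2000 nt 11 of 29 members rose (median 0.48), against 24.3% of all such genes (median 0.28). From 2000 nt 14 of 25 members rose (median 0.60), against 5.13% of all such genes, whose median was -0.28. In each class the members' median lay above that of all genes of the same length. With the length trend removed 18 of the 25 longest rose (median 0.85), against 9.75% of all genes from 2000 nt (median 0.00). From 1000 to under 2000 nt 6 of 29 then rose (median 0.22), against 9.91% of all such genes (median 0.00). Under 1000 nt 8 of 24 rose and 1 fell (median 0.40), against 197 higher and 123 lower of all 1018 such genes (median 0.15). The corrected change of the members rose with log2 transcript length (Pearson r = 0.50) and fell with log2 coding length (r = -0.23).

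With the length trend removed 32 members rose and 1 fell, while 10.4% of all genes were called higher and 8.03% lower. Adding the replicate block gave 40 higher, against 15.6% of all genes, and 2 lower, Mrps15 and Mrpl42 (13.6% of all genes). The median change was 0.40 in the large subunit, where 18 rose, and 0.42 in the small subunit, where 14 rose and 1 fell. The median of all genes was then 0.01. Of the members 27 were called in both fits, 18 only without the correction and 6 only with it. Without WT replicate 1 this fit called 0 members (36 higher at an unadjusted p under 0.05), when 0.443% of all genes were called higher. Without WT replicate 2 it called 34 higher (all genes 16.4%) and without WT replicate 3 it called 2 (1.23%). Leaving out HdR replicates 1, 2 and 3 in turn gave 12 (4.33%), 7 (2.17%) and 22 (5.43%).

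Among members whose calls ended with the correction, the 4 with the lowest adjusted p were short. Mrpl34 stood at 15.5, 18.2 and 14.1 in WT and 31.1, 38 and 29.7 in HdR (1.00, the smallest adjusted p of all members at 0.0101 in limma). It has a transcript of 607 nt and changed by 0.34 with the trend removed (limma adjusted p = 0.0831). Mrpl52 rose from 68.7 ± 12.1 to 151 ± 39.6 (1.11, limma adjusted p = 0.0128) and Mrps21 from 48 ± 8.93 to 105 ± 29.6 (1.09, limma adjusted p = 0.0139). Corrected, they stood at 0.40 and 0.39 (limma adjusted p = 0.0512 and 0.0555). With the trend removed and the replicate number as a block, a pairing taken from these same data, both passed (limma adjusted p = 0.0372 and 0.0393). Mrpl36 rose from 31.1 ± 3.16 to 53.6 ± 4.53 (0.77, limma adjusted p = 0.0136) and stood at 0.23 after correction (limma adjusted p = 0.184).

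Members called only with the correction have long annotated transcripts, apart from Mrps15. Mrps17 stood at 30.6, 29.6 and 32.3 in WT and 38.5, 38.7 and 37.8 in HdR, with no overlap (0.31, limma adjusted p = 0.126). With its 5061 nt the corrected change was 0.72 (limma adjusted p = 0.016). Mrpl19 changed by 0.44 (limma adjusted p = 0.0534, and 0.0247 with the replicate block) and by 0.85 corrected (limma adjusted p = 0.0182). Mrpl47 changed by 0.50 (limma adjusted p = 0.0704, and 0.0408 with the block) and by 0.75 corrected (limma adjusted p = 0.0308). Mrpl48 and Mrps25 were also called only with the correction. Exonic bases shared with other annotated genes were 69.8% in Mrps25, 36% in Mrpl19, 24.2% in Mrpl47 and 8.68% in Mrpl48. Some of the annotated transcript lengths are mostly untranslated sequence, and which transcript the skin uses is not known from sums per gene. In 25 members the annotated transcript is at least 3 times the coding sequence, and their median change was 0.74, or 0.85 with the transcript length trend removed and 0.33 with a trend on coding length removed. In the other 53 the medians were 0.77, 0.29 and 0.42. With coding length 27 members rose and 0 fell (3 lower at an unadjusted p under 0.05 in limma), against 9.25% of all genes called higher and 8.19% lower, and 67 had a positive change, against 51.9% of all genes.

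**Figure D4:**
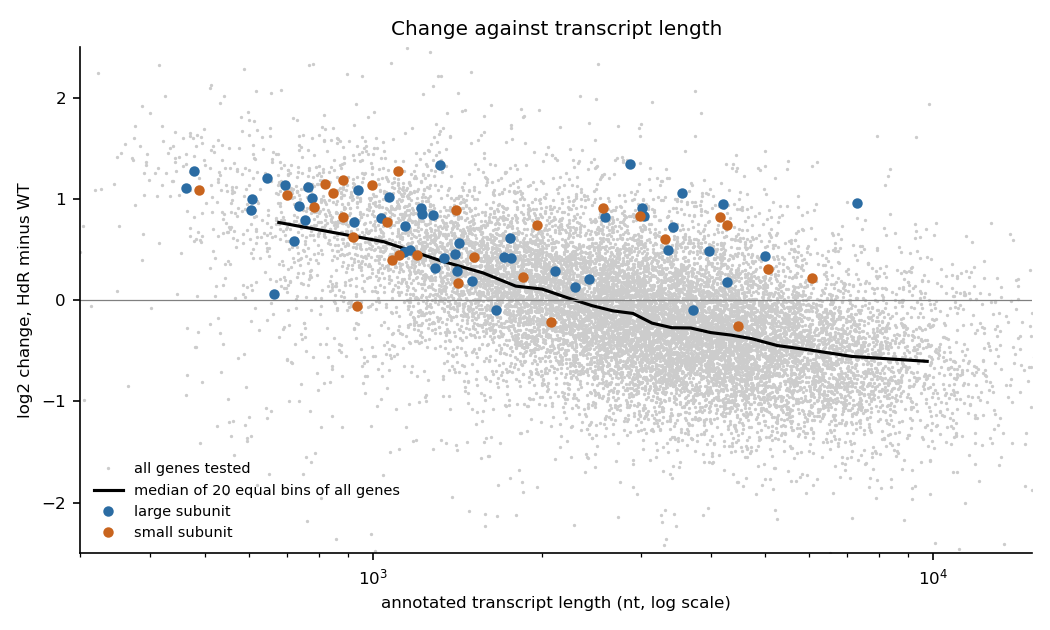
Log2 change (HdR minus WT) against annotated transcript length in nt (log scale) for all genes tested with a length (grey), large subunit genes (blue) and small subunit genes (orange). The black line joins medians of 20 equal bins of all genes; members from 2000 nt have a median of 0.60, above the -0.28 of all genes of that length.

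Of 5 mitoribosomal protein genes with other names 3 rose. Chchd1, a small subunit protein, stood at 53.5, 86.5 and 41.4 in WT and 132, 216 and 128 in HdR (1.40, limma adjusted p = 0.0144). Gadd45gip1 of the large subunit rose from 36 ± 4.62 to 64 ± 17.9 (0.78, limma adjusted p = 0.0276) and Aurkaip1 of the small subunit from 81.4 ± 13.8 to 137 ± 32.5 (0.73, limma adjusted p = 0.0309). Ptcd3, a small subunit protein that binds RNA, stood at 44.6 ± 6.61 and 33.1 ± 8.16 and did not pass (-0.44, limma adjusted p = 0.142). Dap3, a GTP-binding small subunit protein, stood at 51.4 ± 3.42 and 58.7 ± 2.4 (0.19, limma adjusted p = 0.321). The median was 0.73. With the length trend removed Chchd1, Gadd45gip1 and Dap3 rose (0.59, limma adjusted p = 0.027 for Dap3) and Aurkaip1 did not pass (0.29, limma adjusted p = 0.145). With the replicate block 1 of the 5 fell.

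Other lists were read against the 12.7% of all genes called higher and the 17.9% called lower. Of 18 mitochondrial translation factors 2 rose (11.1%, near the share of all genes) and 1 fell (5.56%), with a median of 0.11. The initiation factor gene Mtif3 rose from 39.7 ± 6.57 to 59.8 ± 4.24 (0.59, limma adjusted p = 0.0311) and the peptide deformylase gene Pdf from 27 ± 2.33 to 44.2 ± 3.69 (0.69, limma adjusted p = 0.0164). Oxa1l, which inserts the products into the inner membrane, fell from 26.6 ± 1.22 to 17.4 ± 3.55 (change -0.60, limma adjusted p = 0.0396). Of 33 assembly and RNA modification factors 5 rose (15.2%, also near that share) and 2 fell (6.06%), with a median of 0.21. Malsu1, an assembly factor of the large subunit, rose from 21.4 ± 4.59 to 43.1 ± 9.47 (0.98, limma adjusted p = 0.0156), C1qbp from 56.9 ± 9.9 to 106 ± 14.2 (0.89, limma adjusted p = 0.0136) and Ybey from 4.29 ± 1.44 to 8.81 ± 2.51 (0.90, limma adjusted p = 0.0366). The RNA helicase gene Dhx30 fell from 24.9 ± 6.04 to 13.1 ± 2.96 (-0.87, limma adjusted p = 0.0275). With the replicate block, where 18.3% of all genes were called higher and 27.2% lower, 8 assembly factors rose and 4 fell, and 3 translation factors fell. After length correction neither Pdf (0.31, limma adjusted p = 0.0881) nor Dhx30 (-0.48, limma adjusted p = 0.0827) passed.

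A list of 22 genes held aminoacyl-tRNA synthetases that work in mitochondria and the tRNA amidotransferase subunits Qrsl1, Gatb and Gatc. Of these 22 genes 0 rose in limma and 1 fell (4.55%), against 12.7% and 17.9% of all genes. With the replicate block 1 rose and 3 fell, against 18.3% and 27.2%. The one that fell was Iars2, from 51.8 ± 9.88 to 29.4 ± 5.37 (-0.80, limma adjusted p = 0.0236). Of 18 genes of mitochondrial transcription, mRNA stability and their regulators 3 rose (16.7%, near the 12.7% of all genes) and 0 fell (1 fell with the block). Slirp, which stabilises mitochondrial mRNAs, rose from 70.7 ± 28.1 to 187 ± 75.8 (1.38, limma adjusted p = 0.0195), Tefm, an elongation factor of mitochondrial transcription, from 14.9 ± 2.37 to 24 ± 2.22 (0.66, limma adjusted p = 0.0259) and Myc from 23.7 ± 8.16 to 41.3 ± 6.04 (0.82, limma adjusted p = 0.0377). Lrpprc, the partner of Slirp, stood at 35.6 ± 9.5 and 19.7 ± 7.11 and did not pass (-0.85, limma adjusted p = 0.0585). Neither Iars2 (-0.35, limma adjusted p = 0.102) nor Tefm (0.29, limma adjusted p = 0.137) passed once corrected for length. Translation factors, assembly factors, the list with the synthetases and this last group have median transcripts of 2563, 2288, 3137 and 3620 nt, longer than those of the members. With the length trend removed their medians were -0.01, 0.05, 0.00 and 0.22, against 0.40 for the members. With a trend on coding length removed instead they were 0.23, 0.21, 0.12 and 0.18. The members then stood at 0.40 and all genes at 0.02, so the distance to these lists depended on the length used. The difference between the lists was not tested. Genes of mitochondrial DNA were not analysed here.

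Cytosolic ribosomal protein and oxidative phosphorylation genes had higher medians than the members. Of 87 cytosolic ribosomal protein genes tested 76 rose (87.4%, against 12.7% of all genes) and 0 fell, with a median of 1.23, and 0.72 with the length trend removed. Of 92 genes of oxidative phosphorylation, assembly factors of complex I included, 70 rose (76.1%) and 1, Ndufs1, fell (-0.81, limma adjusted p = 0.0287), with medians of 0.93 and 0.43. Without WT replicate 1 only 3 cytosolic ribosomal protein genes and 4 oxidative phosphorylation genes were called higher, when 1.33% of all genes were. Without WT replicate 3 the numbers were 16 and 35, when 4.1% of all genes were called. The median transcripts of these groups are 914 and 892 nt. The corrected medians of the mitochondrial ribosomal protein genes (0.40) and of the oxidative phosphorylation genes thus lay close together, and that of the cytosolic ribosomal proteins lay above them, in values whose difference was not tested.

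**Figure D5:**
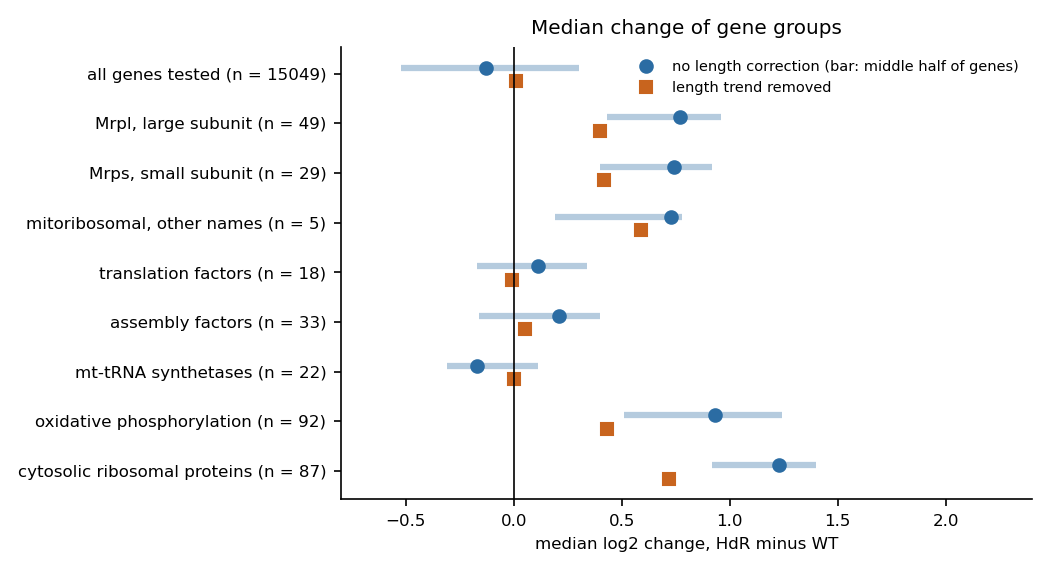
Median log2 change (HdR minus WT, x axis) of the gene groups, with n tested in brackets. Blue circles are medians without length correction, blue bars span the middle 50% of genes, and orange squares are medians with the length trend removed; the subunits stand at 0.77 and 0.74 without and 0.40 and 0.42 with the correction.

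The members lie on 17 chromosomes, with the most (11) on chromosome 11. Many share a start region with a neighbour on the other strand. In 33 of 78 members (42.3%) another protein-coding gene starts within 1000 nt on the opposite strand in GENCODE M21, against 10.9% of all 21924 protein-coding genes. That share also covers genes that did not pass the filter on low values, whereas all 78 members passed it. The share among tested genes was not computed. Of 30 neighbours tested, 2 of them members themselves, 4 rose (Fau, Psma2, Ndufs6 and Ndufb5) and 4 fell (Ncapd2, Gga3, Mitd1 and Apba3), with a median change of -0.22. Both counts are small and near the shares of all genes (12.7% higher and 17.9% lower). Mrpl51 rose from 56.5, 68.6 and 53.8 in WT to 97.9, 113 and 85.4 in HdR (0.72), while Ncapd2, a condensin gene that starts 100 nt away, fell by 1.76 (limma adjusted p = 0.0165). Mrpl57 rose beside the kinetochore gene Ska3, which changed by -0.42 (limma adjusted p = 0.248), and Mrps18c beside the helicase gene Helq at -0.27 (limma adjusted p = 0.332). Mrpl49 did not pass (0.42, limma adjusted p = 0.0808), while its neighbour Fau, a cytosolic ribosomal protein gene, rose by 1.62 (limma adjusted p = 0.0138). The neighbours Ncapd2, Ska3 and Helq have transcripts of 4629, 2260 and 3689 nt. With the length trend removed they changed by -1.37, -0.44 and 0.02. Mrpl46 and Mrps11 start head to head and overlap by 412 nt, and neither passed (0.48 and 0.77, limma adjusted p = 0.0544 and 0.0592). Both did with the replicate block (limma adjusted p = 0.0161 and 0.00479). With the length trend removed neither passed (0.04 and 0.29, limma adjusted p = 0.852 and 0.288). Adding the block to that fit gave limma adjusted p = 0.834 and 0.14.

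Start regions of the members were also searched for short motifs, in RefSeq windows of GRCm38.p6 from 250 bases before to 50 after a start, which were matched by symbol for 69 members. The motifs were CCGGAAG, bound by ETS factors such as GABPA, CGCATGCG, the core of the NRF1 motif, AAGATGGCG, bound by YY1, and GGGCGG, bound by SP factors. All were searched on both strands, and none contains another. GABPA, NRF1 and YY1 are known regulators of nuclear genes for mitochondria. The ETS motif lay in the windows of 26 members (37.7%), against 18% of 11680 tested genes with a window and 9.93% of all 27025 genes. The NRF1 core lay in 7 (10.1%, against 3.84% and 2.07%), the YY1 motif in 8 (11.6%, against 3.12% and 1.64%) and the SP motif in 34 (49.3%, against 64.7% and 38.2%). Of the members with an ETS motif 19 of 26 rose (median 0.85), and of those without it 20 of 43 (median 0.56). Of the members with the NRF1 core 2 of 7 rose (median 0.43), and of those without it 37 of 62 (median 0.77). For the YY1 motif the counts were 3 of 8 with it (median 0.50) and 36 of 61 without (median 0.74). For the SP motif they were 21 of 34 (median 0.81) and 18 of 35 (median 0.60). The share called higher among all tested genes with each motif was not computed. These splits were not corrected for length, and their differences were not tested. These matches are letters in a window and not measured binding.

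The stretches below, from RefSeq, show the ETS motif and the NRF1 core before the start of members that rose (Mrpl34, Mrpl52, Mrps18a) and of members that did not pass (Mrps22, Mrpl22, Mrpl9). Each reads 5′ to 3′ along the gene's strand, lies outside annotated exons and has the motifs in capitals, CCGGAAG or its reverse complement CTTCCGG for ETS and CGCATGCG for NRF1. Mrpl34 is from chr8:71464859-71464925 (plus strand), Mrpl52 from chr14:54426832-54426898 (plus), Mrps18a from chr17:46110948-46110985 (plus), Mrps22 from chr9:98601680-98601720 (minus), Mrpl22 from chr11:58171581-58171660 (plus) and Mrpl9 from chr3:94443279-94443317 (plus).
Mrpl34: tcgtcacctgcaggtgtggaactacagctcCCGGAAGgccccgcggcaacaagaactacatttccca
Mrpl52: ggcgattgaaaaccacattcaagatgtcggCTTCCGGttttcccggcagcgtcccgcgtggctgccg
Mrps18a: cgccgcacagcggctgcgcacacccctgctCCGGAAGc
Mrps22: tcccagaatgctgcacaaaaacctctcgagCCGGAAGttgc
Mrpl22: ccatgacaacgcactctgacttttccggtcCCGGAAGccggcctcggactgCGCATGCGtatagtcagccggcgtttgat
Mrpl9: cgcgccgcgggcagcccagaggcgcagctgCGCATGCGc

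Mrpl22, which holds both motifs, stood at 23, 28.2 and 20 in WT and 31.1, 46.6 and 30.8 in HdR and missed the threshold (0.58, limma adjusted p = 0.0661, and 0.0105 with the replicate block). With the length trend removed it changed by -0.04 (limma adjusted p = 0.843). Members with and without a given motif thus occurred on both sides of the threshold.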

How the data were processed

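Total RNA of mouse ear skin was sequenced from 3 WT and 3 HdR samples, with NEBNext Ultra II libraries on a NovaSeq instrument per the labels. The deposited values are coverage, a signal of aligned bases summed per gene: 1656 of them equal 300, the bases of 1 read pair. The genome build is GRCm38 per the submitters' processing notes, while aligner, annotation and strandedness were not given in the sources used here. Since the values are not read counts, no count model was fitted. Coverage was scaled by the trimmed mean of M values (30% of M and 5% of A trimmed). Genes reaching 1 base per Mb in 3 or more libraries (15049) entered a robust limma fit with an intensity trend on log2(value + 1) (limma 3.58.1 in R 4.3.3), without covariates and with Benjamini-Hochberg adjustment at 0.05. The labels do not say that the samples come from separate mice, so p values measure the spread between these samples. For the length correction, a spline fit with 4 degrees of freedom on the log2 length of the longest protein-coding transcript in GENCODE M21 was removed from each library, for 14901 genes. HdR and WT libraries of the same number deviated together from their genotype means (r = 0.16, 0.42 and 0.37 for replicates 1, 2 and 3). WT replicate 1 deviated as much with HdR replicate 3 (r = 0.16), so for replicate 1 the data do not single out the matched pair. All matched values were above 0.1, but so was that unmatched 0.16, so this limit does not separate matched from unmatched pairs. The replicate block was fitted only as an alternative, and the labels give no such pairing. Calls made with the block rest on a pairing taken from these same data and are no separate support. Replicate 2 had the lowest length slope in each genotype (0.041 in WT and -0.277 in HdR). The part of this slope in the correlations was not tested. The fits were also run on simulated data whose noise was independent between genes and libraries. The libraries here deviate together over many genes, so those runs do not show how reliable the calls are in these data. A level of 1 base per Mb corresponds to between 11.7 and 23.6 sequenced pairs, depending on the library. Members and lists were chosen with earlier results of these data known. Genes named with values were the 8 largest rises, the 4 highest levels per kb in each subunit, 12 genes chosen by role, up to 4 whose call changed with the length correction in each direction, and up to 4 of each other list. Others named (Mrpl58, Mrps30, Mrps36, the members with a negative change and those in the promoter and neighbour paragraphs) were chosen after their values were seen. Alternatives were other scalings, pseudocount, filters, voom, the replicate block, other lengths and each library left out.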

Additional observations from a re-analysis of the deposited data

How the results depend on the processing

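The direction of the members' medians held under all 25 alternative settings, and the number of calls did not. With 45 members higher (28 large, 17 small subunit), scaling to total bases gave 26 (18 and 8, small subunit median 0.43), no filter 20 (15 and 5) and removal of a coding length trend 27 (16 and 11, medians 0.37 and 0.40). The shares of all genes called higher in these fits, in the same order, were 12.7%, 6.1%, 4.37% and 9.25%. Removal of the transcript length trend gave 18 for the large subunit, medians of 0.40 and 0.42, and 1 member lower, also with the longest transcript of any type, and 2 lower with the replicate block (medians 0.40 and 0.42). All genes were then called higher in 10.4% and lower in 8.03%, or 15.6% and 13.6% with the block. The replicate block alone gave 60 higher and 0 lower, against 18.3% and 27.2% of all genes. Leaving out each library in turn gave 0 to 57 members higher (large subunit 0 to 37, small subunit 0 to 20), with medians of 0.57 to 0.88 and 0.61 to 0.89. Between 1.33% and 17.9% of all genes were called higher in those fits. With the length trend removed and WT replicates 1, 2 and 3 and then HdR replicates 1, 2 and 3 left out, the members higher were 0, 34, 2, 12, 7 and 22. The shares of all genes called higher were 0.443%, 16.4%, 1.23%, 4.33%, 2.17% and 5.43%. The large subunit gave 0, 21, 1, 8, 4 and 14, and the small subunit 0, 13, 1, 4, 3 and 8, with 2 members lower only without WT replicate 2. The large subunit medians were 0.39, 0.38, 0.33, 0.43, 0.34 and 0.45 and those of the small subunit 0.40, 0.39, 0.38, 0.44, 0.33 and 0.52. The ratio of small to large subunit coverage was 0.456 in WT and 0.452 in HdR, 0.45 and 0.461 with quantile normalisation, and 0.414 and 0.405 with subunits taken by structure. The causes of these shifts were not tested. A larger set of genes was adjusted over without the filter (23289). Trends on median coding transcript length and on coding length, and sorting by structure, were chosen after seeing the data. Of 29 named members none changed direction with a call under any setting.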

Other observations

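Lars2, the mitochondrial leucyl-tRNA synthetase gene, stood apart from the other synthetases. It stood at 26.7, 20.3 and 26.6 in WT and 26.2, 71.5 and 97.2 in HdR (change 1.19, limma adjusted p = 0.0531), with HdR replicate 1 at the WT level. The 45S ribosomal RNA precursor Rn45s took 0.368%, 1.54% and 1.21% of all bases in the same HdR replicates and 0.102% to 0.119% in WT. Whether ribosomal RNA reads are part of the Lars2 values was not tested.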
